A study of Mus musculus with 2 samples.

Results

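The proteasome genes were taken as all protein-coding genes of GENCODE M21 on chromosomes 1 to 19 whose symbol begins with Psma, Psmb, Psmc, Psmd, Psme, Psmf or Psmg. The rule gave 49 of 20807 protein-coding genes, and it used names only, not measured values. The assay was DNase-seq, which sequences the ends left when DNase I cuts nuclei lightly, so that open DNA collects many cuts. The tissue was left cerebral cortex, from females of the B6CASTF1/J strain at 2 months of age, a cross of C57BL/6J with CAST/EiJ. There were 2 libraries, called replicate 1 and replicate 2, in 1 group with no treatment named. The labels number the females separately but give both the same donor entry, so the spread between the libraries is described as it stands and may be partly technical. With 1 group of 2 libraries nothing could be tested, and genes are not replicates. The members are therefore described by counts and medians beside all protein-coding genes.

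The proteasome degrades proteins that carry ubiquitin chains. Its 20S core is a barrel of alpha rings, which gate the entry, around beta rings, which hold the proteolytic sites. The 19S cap has a base of ATPases that unfold the substrate and a lid that removes ubiquitin. In immune cells and under interferon, the inducible subunits Psmb8, Psmb9 and Psmb10 take the places of the constitutive catalytic subunits Psmb5, Psmb6 and Psmb7 and form the immunoproteasome, which favours peptides for presentation by class I molecules. Neurons mainly carry the constitutive form. Transcription of the subunit genes after proteasome inhibition is driven by the factor encoded by Nfe2l1, which binds antioxidant response elements. One member by name, Psmc3ip, encodes a factor of meiotic recombination and is not a proteasome subunit; it was kept because the rule names it. Psmd10 lies outside chromosomes 1 to 19 and was not counted.

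The sequences shown first are those of the inducible subunits and of their constitutive counterparts, since the comparison between these rests on their promoters. Capitals mark bases inside footprints of both libraries; a footprint is a short protected stretch within open DNA, called by the authors at a false discovery rate (FDR) of 0.01. Each is written 5′ to 3′ on the gene's strand and was read from the RefSeq promoter table (GRCm38.p6, the same build as mm10), except that of Psmb8. For Psmb8 the RefSeq start lies downstream of its peak, and the 250 bases before the outermost GENCODE 5′ end were read from the genome. Bases inside annotated exons were left out. For Psmb9, whose whole window lies in an exon of 1 GENCODE transcript, 30 bases of 1 footprint are shown. Psmb7 has no entry in the table.
Psmb5 (chr14:54618023-54618245, minus strand): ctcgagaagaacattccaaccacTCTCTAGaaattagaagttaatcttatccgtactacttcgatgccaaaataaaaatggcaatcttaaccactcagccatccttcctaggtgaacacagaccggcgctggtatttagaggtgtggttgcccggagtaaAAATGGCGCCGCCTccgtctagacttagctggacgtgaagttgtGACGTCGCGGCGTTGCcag
Psmb6 (chr11:70525107-70525356, plus strand): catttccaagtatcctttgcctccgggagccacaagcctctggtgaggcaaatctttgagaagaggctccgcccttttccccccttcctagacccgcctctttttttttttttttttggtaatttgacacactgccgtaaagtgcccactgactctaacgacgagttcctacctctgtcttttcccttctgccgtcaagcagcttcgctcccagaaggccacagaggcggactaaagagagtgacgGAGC
Psmb8 (chr17:34197471-34197720, plus strand): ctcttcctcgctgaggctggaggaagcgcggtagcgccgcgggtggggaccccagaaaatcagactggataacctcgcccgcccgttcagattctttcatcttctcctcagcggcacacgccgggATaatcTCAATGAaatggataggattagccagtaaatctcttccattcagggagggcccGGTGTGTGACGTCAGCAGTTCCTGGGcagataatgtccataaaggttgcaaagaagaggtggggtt
Psmb9 (chr17:34187375-34187404, minus strand): CGCCCCTTGCGCGATGATGGGGCGGGGCCT
Psmb10 (chr8:105938445-105938642, minus strand): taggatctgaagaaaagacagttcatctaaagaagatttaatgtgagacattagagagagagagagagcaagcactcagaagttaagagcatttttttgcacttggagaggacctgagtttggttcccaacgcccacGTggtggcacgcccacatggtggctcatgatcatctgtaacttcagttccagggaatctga
In these stretches Psmb5 had 37 bases in footprints of both libraries, Psmb8 had 35, Psmb6 had 4 and Psmb10 had 2. The Psmb8 stretch held the letters TGACGTCA, the cyclic AMP response element, wholly inside a footprint of both libraries and 60 to 53 bases before the 5′ end (written as -60 to -53). The stretches of Psmb5 (223 bases) and Psmb8 (250 bases) each held 14 CpG dinucleotides, that of Psmb6 (250 bases) held 10 and that of Psmb10 (198 bases) held 3. The Psmb10 stretch lies upstream of the strongest peaks of that gene, and the Psmb6 stretch ends inside a footprint of both libraries. The footprint and CpG counts therefore depend on where each stretch was cut.

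Signal below is the authors' height of the cut density at a peak, normalized by them to read depth, and for a gene it is that of the strongest peak reaching within 500 bp of its outermost annotated 5′ end. A peak present in both libraries is called shared. From the steps between signal values, depth was about 206 M cuts (replicate 1) and 208 M cuts (replicate 2). The larger peak lists held 128323 and 119651 peaks. Of the tissue checks, 5 of 6 excitatory neuron markers and 4 of 5 astrocyte markers had a shared promoter peak, as did 2 of 4 oligodendrocyte markers, and none of the 6 genes of tissues outside the brain did. In bulk tissue, fewer cells of a type and less signal per cell cannot be told apart.

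Promoters of proteasome genes were open in cortex at 42 of 49 members, that is 85.7%, in both libraries, against 59.8% of all protein-coding genes. With any annotated start of the gene in place of the outermost one, 46 of 49 members had a shared peak, against 65.4%. In the authors' smaller list, where every peak held a position below an FDR of 0.001, 42 members had a shared promoter peak, against 55.9%. The median signal over members with a shared peak was 3.48 in replicate 1 and 3.88 in replicate 2, or 3.68 ± 0.28 (SD, n = 2). Over all 12437 genes with a shared promoter peak it was 2.87 and 3.12. Of the 42 members, 26 lay above these medians in both libraries and 10 below them in both. Signal ran from 1.24 ± 0.28 (SD, n = 2) at Psmb10 to 7.93 ± 1.58 (SD, n = 2) at Psmb2. In the window of 1001 bp, the authors' cut-rate table listed a median of 795 bp in replicate 1 and 770 bp in replicate 2 below an FDR of 0.05 for members, and 606 and 529 bp for all genes. Unlike the signal medians, these include genes without a shared promoter peak, which are a larger part of all genes than of members.

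**Figure D1:**
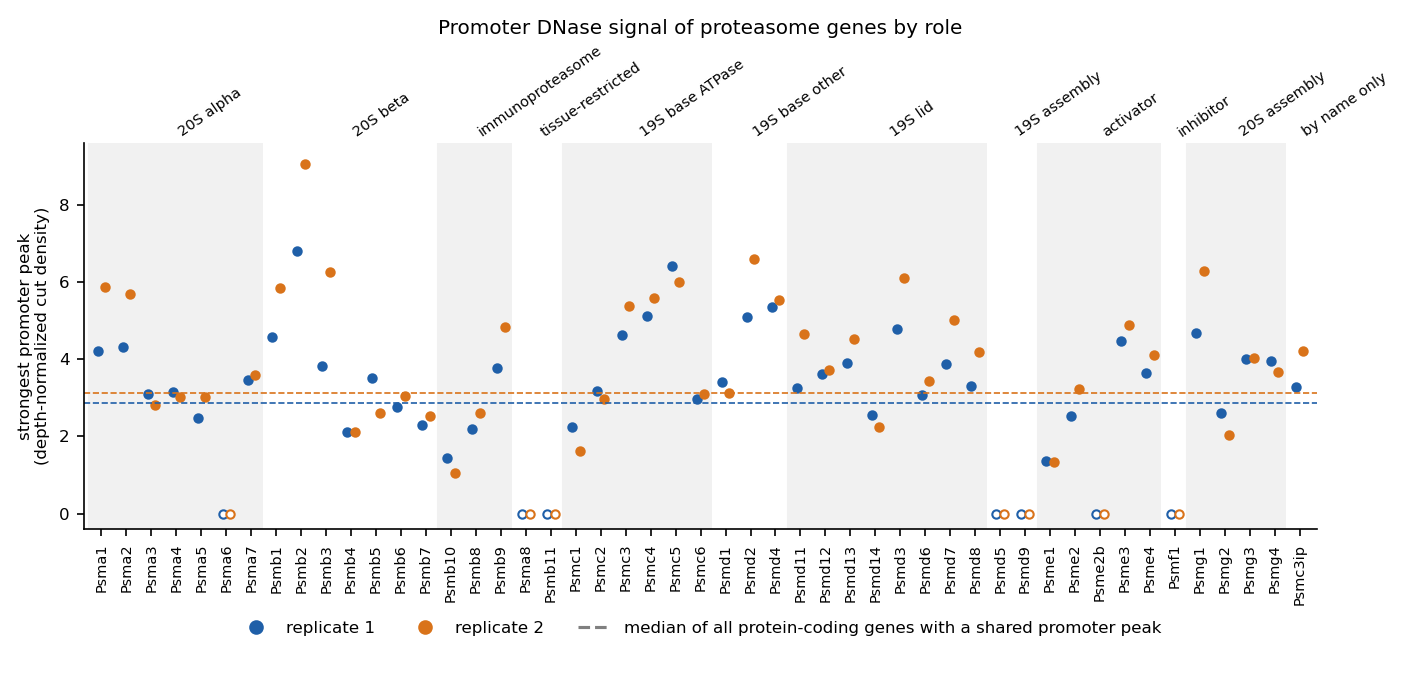
Promoter DNase signal (vertical axis, depth-normalized cut density of the strongest peak) of the 49 genes grouped by role (shading). Blue is replicate 1 and orange replicate 2; open circles at 0 mark genes with no promoter peak, and dashed lines are the medians of all genes with a shared promoter peak (2.87 and 3.12). Psmb2 stands highest (6.81 and 9.05), and 7 genes have no peak.

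All 7 constitutive alpha subunits had a shared peak at some annotated start, and 6 had it at the outermost 5′ end. Psma1, an alpha-ring subunit, had the highest mean signal of these, 4.21 in replicate 1 and 5.87 in replicate 2. Psma5 had the lowest mean, from 2.48 and 3.02. Psma2, at 4.31 and 5.70, was close to Psma1 in both libraries. Psma6 had no peak at its outermost 5′ end but one of 2.79 and 2.62 at another annotated start, centred 14569 bp downstream. The median over the 6 was 3.30 in replicate 1 and 3.31 in replicate 2.

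Every one of the 7 constitutive beta subunits had a shared promoter peak. Psmb2, a beta subunit without a proteolytic site, reached 6.81 and 9.05, above 99.1% of genes with a shared promoter peak. Psmb4, also without one, had 2.11 and 2.12, the lowest of the beta subunits and nearly the same in both libraries. Psmb1 stood at 4.56 and 5.85. Psmb3 had 3.82 in replicate 1 and 6.27 in replicate 2, the widest gap between libraries of any member (1.64-fold). The catalytic Psmb5, Psmb6 and Psmb7 lay in the lower range of the beta subunits, with means from 2.42 to 3.05. Over all 14 constitutive 20S genes, 13 had a shared promoter peak, and the median of these was 3.25 ± 0.30 (SD, n = 2).

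All 3 immunoproteasome genes had an open promoter in both libraries. Psmb8, the inducible counterpart of Psmb5, had a signal of 2.20 in replicate 1 and 2.60 in replicate 2. Psmb5, on chromosome 14 from 54614119 to 54618022, had 3.50 and 2.59. The ratio of Psmb8 to Psmb5 was thus 0.628 in one library and 1.00 in the other (0.815 ± 0.264, SD, n = 2), and the ranges of the genes touched.

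Psmb9, the inducible counterpart of Psmb6, had 3.77 and 4.83, above Psmb6 at 2.77 and 3.04 in both libraries. The ratio was 1.36 and 1.59 (1.47 ± 0.16, SD, n = 2). This peak is not that of Psmb9 alone. Tap1, which encodes a transporter of peptides for class I molecules, starts on the opposite strand, with the 5′ ends 211 bp apart, and the same peak counted for both genes. The peak centre lay 313 bp inside the outermost 5′ end of Psmb9, close to shorter annotated transcripts. Psmb8 and Psmb9 are neighbours on chromosome 17, with 5′ ends 9957 bp apart, and each had its own peak.

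Psmb10, the inducible counterpart of Psmb7, had the lowest mean promoter signal of all members, from 1.44 in replicate 1, where Psme1 was lower, and 1.04 in replicate 2. Psmb7 had 2.30 and 2.54, and the ratio of Psmb10 to Psmb7 was 0.625 and 0.410 (0.518 ± 0.152, SD, n = 2). These strongest peaks were centred 733 and 603 bp inside the gene. A weaker peak was centred 223 bp inside in replicate 1 (0.84) and at -19 bp, on the outermost 5′ end, in replicate 2 (0.66). At another annotated start of Psmb10, with the peak centred 1063 bp inside, the signal was 2.30 and 2.56, and the ratio to Psmb7 was then 1 and 1.01. The direction of this pair therefore rests on the start chosen. Set among the 13 constitutive 20S genes with a peak, Psmb9 exceeded 8 in both libraries, Psmb8 exceeded 1 in replicate 1 and 3 in replicate 2, and Psmb10 exceeded 0.

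**Figure D2:**
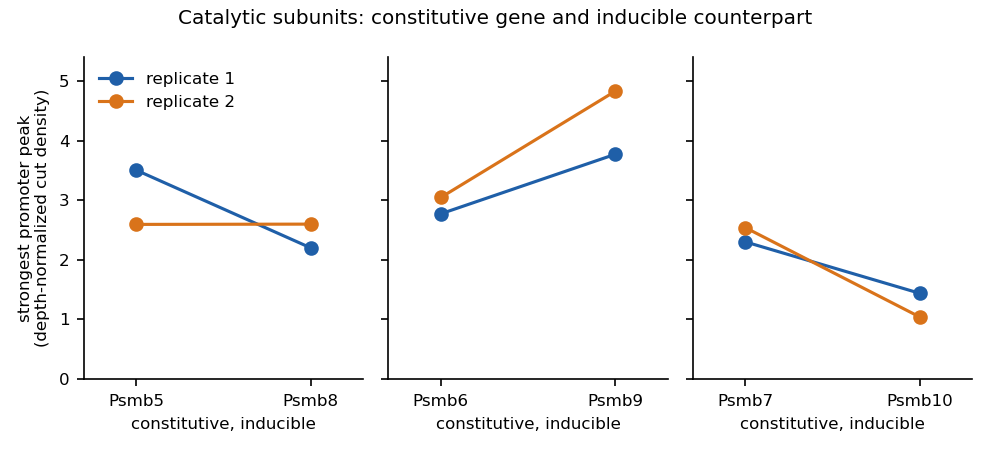
Promoter DNase signal (vertical axis, depth-normalized cut density) of each constitutive catalytic subunit and its inducible counterpart, with 1 line per library. Psmb9 lies above Psmb6 in both libraries, Psmb10 below Psmb7 in both, and Psmb8 is below Psmb5 in replicate 1 and level with it in replicate 2.

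The immunoproteasome is known from microglia and endothelium among brain cells, and most of their marker genes had no promoter peak here. Of 15 microglia markers, 3 had a shared promoter peak, among them Sall1 at 1.39 and 1.64 and Trem2 at 0.57 and 0.61. Cx3cr1, Csf1r, P2ry12 and Tmem119 had none at the outermost 5′ end. Of 6 endothelial markers, 2 had one, Kdr at 0.90 and 0.67 and Flt1 at 0.86 and 0.45. The 4 markers named with values were thus at or below 1.64, and Psmb8 and Psmb9 were above that in both libraries. Psmb10 was below 1.64 in both libraries at its outermost 5′ end. At its other annotated start it was above 1.64 in both, at 2.30 and 2.56. The part of these cells in the immunoproteasome peaks was not tested.

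The subunits restricted to other tissues had no open promoter. Psma8, the alpha subunit of testis, and Psmb11, the beta subunit of thymic cortical epithelium, had no peak at any annotated start in either library. The cut-rate tables listed 0 bp below an FDR of 0.05 in the promoter window of either gene. Psmb11 lies beside Psmb5 on chromosome 14, with 5′ ends 3411 bp apart, and the peak of Psmb5 (3.50 and 2.59) was centred at -3392 bp from the Psmb11 5′ end, that is upstream.

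The 17 members that encode subunits of the 19S cap all had a shared promoter peak. Their median signal was 4.07 ± 0.64 (SD, n = 2). Among the 6 ATPases of the base, Psmc5 was highest, 6.40 and 6.01. Psmc1, another ATPase, was lowest of the cap, 2.24 and 1.63. Psmc4 had 5.12 and 5.59 and Psmc3 had 4.62 and 5.38. The other base subunits are scaffolds and ubiquitin receptors. Psmd2, a large scaffold subunit, had 5.10 and 6.58. Psmd4, a ubiquitin receptor, had 5.35 and 5.54. Psmd1 was lower in both libraries, 3.41 and 3.14.

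The 8 lid subunits among the members ran from Psmd14 to Psmd3. Psmd3, a structural lid subunit, had 4.78 in replicate 1 and 6.09 in replicate 2. Psmd14, the deubiquitinase that cuts the chain from the substrate, had 2.55 and 2.24, below every other lid subunit in both libraries. The median of the lid was 3.46 and 4.35. The chaperones of the base, Psmd5 and Psmd9, had no peak at the outermost 5′ end but had one elsewhere. Psmd9 had 4.26 and 5.59 at another annotated start, with the peak centred 58828 bp downstream. Psmd5 had 3.35 and 3.09 at another start, with the peak centred 3857 bp inside. For both genes the open promoter was thus not at the outermost annotated start.

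Of the activators that replace the 19S cap, Psme3, the nuclear form, was highest, 4.48 and 4.87. Psme4, a large single-chain activator, had 3.65 and 4.11. Psme1 and Psme2, the interferon-inducible pair, did not overlap. Psme1 had 1.35 in both libraries, and Psme2 had 2.54 and 3.23. The Psme2 value is that of a peak near Rnf31, which starts on the opposite strand 595 bp away, and the peak on the Psme2 5′ end had 1.96 and 2.83. Psme2b, a copy of Psme2, had no peak; how reads that match both genes were placed is not given in the sources used here. The inhibitor Psmf1 had a peak only at another annotated start, 2.95 and 3.72, centred 2855 bp inside. All 4 members that encode chaperones of the 20S core had a shared promoter peak. Psmg1 was highest, 4.68 and 6.28, and Psmg2 lowest, 2.60 and 2.03. Psmc3ip, a member by name only, had 3.28 and 4.21.

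The libraries differed little at these promoters. Signal was higher in replicate 2 at 30 of 42 members, 71.4%, against 67.7% of all genes with a shared promoter peak, and the median ratio of replicate 2 to replicate 1 was 1.10 against 1.11. Psmb3 alone differed by more than 1.5-fold, whereas 3.72% of all genes did. After Psmb3 came Psmd11 (3.25 and 4.65), Psma1, Psmb10 and Psmc1. Psmb10 and Psmc1 were higher in replicate 1, and the other 3 in replicate 2.

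Peaks of members sat close to the annotated 5′ end. The centre lay within 150 bp of it at 34 of 42 members in replicate 1 and 37 of 42 in replicate 2, that is 81.0% and 88.1%, against 68.3% and 70.9% of all genes with a shared promoter peak. The median offset was -3.5 bp in replicate 1 and -11.5 bp in replicate 2, negative being upstream. Psme2 lay farthest upstream, at -548 and -558 bp, and Psmb10 farthest inside the gene. Several members start close to another gene: 11 of 49, that is 22.4%, had the 5′ end of a protein-coding gene on the opposite strand within 1 kb, against 11.2% of all genes. The closest were Dnajc2 at 32 bp from Psmc2, Mrpl32 at 75 bp from Psma2, Ftsj3 at 75 bp from Psmc5 and Ss18l1 at 76 bp from Psma7. Tbp, which encodes the TATA-binding protein, lay 137 bp from Psmb1. Where the same peak counts for both genes of such a pair, it cannot be assigned to 1 of them.

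Footprints shared by both libraries lay in the promoters of 42 of 49 members, against 55.3% of all genes. The same 7 genes that lacked a promoter peak had 0 footprints. Member promoters held 320 footprints in replicate 1 and 262 in replicate 2, with a median width of 11 bp in each. Of these, 57.5% and 70.2% overlapped a footprint of the other library. The median per member was 7 in replicate 1 and 6 in replicate 2, against 4 and 3 for all genes. The share with a shared footprint and these medians both include genes without a shared promoter peak. Such genes are a smaller part of the members than of all genes. Open promoters alone were not compared. Psmd1 had 12 in both libraries, of which 10 in replicate 1 overlapped one in replicate 2. Psmb5 had 14 and 8. The inducible genes had few: Psmb8 had 4 and 4, Psmb9 had 5 and 4, and Psmb10 had 1 and 3. Psmb6, at 2 and 4, and Psmb7, at 4 and 5, were in the same range, so a low number did not mark the inducible genes alone.

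**Figure D3:**
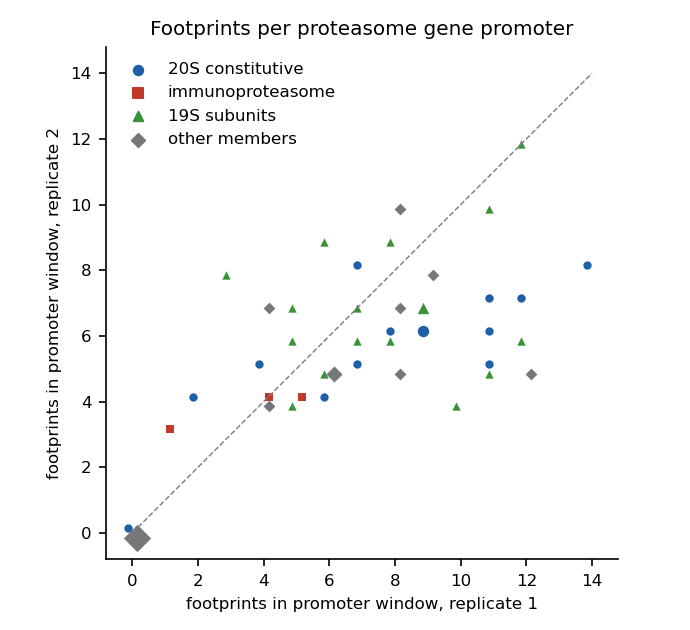
Footprints in the promoter window of each member, replicate 1 (horizontal axis, count) against replicate 2 (vertical axis, count); markers show role, are shifted slightly to avoid overlap, and are larger where several genes of a role coincide. The dashed line marks equal counts. Psmb5 lies far right (14 and 8), and the inducible genes lie at 5 or fewer in both.

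Distal open sites were found near these genes about as often as near other genes. Within the gene body and 10 kb on either side, 28 of 49 members, 57.1%, had at least 1 shared peak centred more than 1 kb from every transcription start site, against 59.9% of all genes, and the other 21 had 0. The median was 1 per member, as for all genes. Each gene was also ranked by this number among the 200 genes nearest to it in locus length. The members' median percentile was 51.5, against 46.0 over all genes. The member loci held 155 shared peaks, each counted once, of which 91 lay within 1 kb of a start and 64 were distal.

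A few members carried most of the distal sites. Psmd11 had 7, all weak, with mean signal from 0.43 to 0.89, and all lay from 43706 bp downstream of its 5′ end onwards, around the end of the gene. Psmb7 had 6, the strongest of which had 1.40 ± 0.18 (SD, n = 2) and lay upstream, at -2044 bp. Psmd9 had 6 and Psmc1 had 5, and Psma3, Psmb3, Psmd14, Psmd3 and Psmg4 followed with 3 each. The 3 sites counted for Psmd14 lay past the end of that gene and within Tbr1, an excitatory neuron marker. A site counted for a member may thus belong to a neighbouring gene. The 2 strongest distal sites belonged to genes with few of them. Psmc2 had 1 site at 4.34 ± 0.71 (SD, n = 2), on chromosome 5 from 21786621 to 21786840, 1448 bp inside the gene. Psmd1 had 1 at 4.07 ± 0.98 (SD, n = 2), on chromosome 1 from 86059521 to 86059700, upstream at -4776 bp. Among the inducible genes Psmb10 had 2, and Psmb8 and Psmb9 had 0. The stronger Psmb10 site had 2.96 ± 1.19 (SD, n = 2) and lay past the end of the gene, 7603 bp downstream of its 5′ end. It was above the peak counted at the outermost 5′ end. Its spread took in the 2.43 ± 0.19 (SD, n = 2) of the peak at the other Psmb10 start.

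Consensus letters were searched on both strands in the window from 250 bases before to 50 after the RefSeq start, for the 41 members and 15646 protein-coding genes in the RefSeq table. Psma8, Psmb1, Psmb2, Psmb7, Psmc3, Psmd3, Psmd7 and Psmg2 had no entry. Member windows held a median of 19 CpG dinucleotides, from 2 to 41, against 15 over all. Their median GC content was 57.3%, as over all genes. A match is a description of the letters and not a bound site. Overlap of matches with footprints was counted for members only, so no share over all promoters stands beside those counts.

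The antioxidant response element (TGACNNNGC) was found in 6 of 41 members, against 13.4% of all promoters, a share near the background. In 3 members it overlapped footprints of both libraries. These sites are printed for that reason, with the element in capitals and 10 bases on either side.
Psmb5 (-47 to -39): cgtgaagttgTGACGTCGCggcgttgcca
Psmb6 (-9 to -1): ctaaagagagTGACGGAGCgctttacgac
Psmd9 (-31 to -23): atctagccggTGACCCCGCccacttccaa
Positions count from the RefSeq start, whose first base is 1, with negative numbers before it. The other matches, in Psmc6, Psmd12 and Psme4, overlapped no footprint in either library. Psmb5 and Psmb6 encode catalytic subunits, and Psmd9 a chaperone of the base. None of the 3 inducible genes had a match in this window. For Psmb8 and Psmb10 the window does not reach the strongest promoter peak.

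The ETS letters (CCGGAAG) were found in 14 of 41 members, 34.1%, against 12.6% of all promoters and 17.5% of promoters of genes with a shared peak. They were unevenly spread over the roles, a split that was noticed after the values were seen. Of 15 genes of the 20S core, inducible and tissue-restricted ones included, 0 had a match. Of 14 subunits of the 19S cap 9 did: Psmc1, Psmc2, Psmc6, Psmd2, Psmd4, Psmd6, Psmd11, Psmd12 and Psmd13. The other 5 were Psme3, Psme4, Psmg1, Psmg3 and Psmc3ip. Among the 20S core genes, the windows of Psma6, Psmb8 and Psmb10 did not reach the strongest peak of the gene. Psmb11 had no promoter peak. In 4 genes, Psmc1, Psmc6, Psme3 and Psme4, a match overlapped footprints of both libraries.

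The letters of nuclear respiratory factor 1 (GCGCANGCG) were found in 7 members, 17.1%. This compares with 9.41% of all promoters and 13.6% of promoters of genes with a shared peak. In 6 of the 7 they overlapped footprints of both libraries: Psma2, Psma4, Psmc4, Psmc5, Psmd14 and Psmg1. In Psma3 they overlapped a footprint of replicate 1. The GC box (GGGCGG) was found in 22 members, 53.7%, against 48.9% of all promoters and 65.6% of promoters of genes with a shared peak. It overlapped footprints of both libraries in 18. The CCAAT box (CCAAT) was found in 14, against 38.4%, and overlapped them in 6. The letters of YY1 (AAGATGGC) were found in 3, against 3.26%, and overlapped them in Psmb6 and Psmc5.

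In the windows searched, letters tied to interferon were not found in the inducible genes apart from 1 match. The interferon-stimulated response element (GAAANNGAA) was found in 6 members, against 8.17% of all promoters: Psmb3, Psmb4, Psmd4, Psmd9, Psme1 and Psmg4. The element overlapped footprints of both libraries in 3 of the 6 members. The site of Psme1, the interferon-inducible activator, is printed with the element in capitals.
Psme1 (11 to 19): gagctgtgctTTCGCTTTCccttcccgct
The gamma-activated site (TTCNNNGAA) was found in 3 members, Psmb8 among them, against 7.78%, and in none within footprints of both libraries. The kappa B letters (GGGANTTTC) were found in 1 member, Psma6, against 1.13%. The Psmb8 window of the table holds no footprint of both libraries, since its peak lies at the earlier GENCODE start. The Psmb10 window does not reach the strongest peaks of that gene, which lie farther inside it. For these genes the search therefore does not cover the strongest promoter peak.

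The remaining consensus letters were near or below the background. AP-1 (TGANTCA) was found in 2 members against 7.02%, and the heat shock element (GAANNTTC) in 3 against 7.32%. EGR (GCGGGGGCG) was found in 0 against 4.1%. The cyclic AMP response element (TGACGTCA) was found in 0 against 2.49% in these windows, although the stretch before the earlier start of Psmb8, printed above, holds it.

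**Figure D4:**
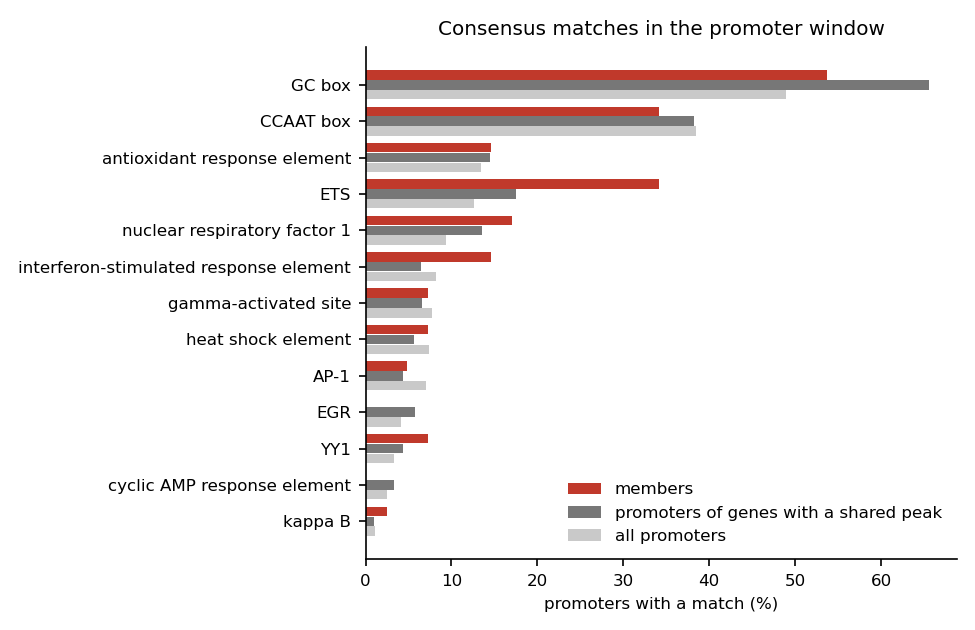
Share of promoters with at least 1 match (horizontal axis, %) for 13 consensus sequences: 41 members (red), promoters of genes with a shared peak at any start (dark grey) and all 15646 promoters (light grey). The ETS share of members, 34.1%, lies above both others, and the GC box share, 53.7%, lies between them.

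Genes that work with the proteasome but do not carry its names were also open. Of 23 partners found, which include ubiquitin shuttles, deubiquitinases and regulators, 22 had a shared promoter peak, and the median of these was 4.41 ± 0.12 (SD, n = 2). Rad23b, a shuttle that brings ubiquitinated proteins to the cap, had 8.12 and 10.7, the highest of the list. Nfe2l2, a factor that binds antioxidant response elements under oxidative stress, had 1.46 and 1.78, the lowest. Nfe2l1 had 4.41 and 4.58, above Nfe2l2 in both libraries. Usp14, a deubiquitinase of the cap, had no peak at its outermost 5′ end but one of 3.59 and 4.26 at another start.

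The class I antigen processing genes with a peak had both their lowest and highest promoter signal below those of the partners in both libraries. Of 15, 14 had a shared promoter peak, and their median was 3.04 ± 0.04 (SD, n = 2). Canx, a chaperone of class I chains, had the highest mean, from 5.69 and 6.92, although Calr was higher in replicate 2 (7.08). H2-T23, a class I gene, was lowest, 0.67 and 0.56, and Nlrc5, which activates class I genes, had 0.71 and 0.91. Tap2, the partner of Tap1, had a peak only at another annotated start, 2.33 and 3.53. Class I genes are near copies of each other, so reads could have been split between them and their values are uncertain.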

How the data were processed

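DNase-seq calls of 2 libraries were used. Peaks and footprints were called on each library by the authors on mm10, per the labels; the aligner and callers were not given in the sources used here. Peak signal is the authors' deposited cut density, normalized by them to depth. Footprints carry, as deposited, a fraction that is the FDR of the call (0.01 throughout), and the deposited cut-rate tables give q-values (p-values adjusted as an FDR) below 0.05. Every signal value below 1000 steps was a whole multiple of the library's step, within 0.05 of a step.

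Genes came from GENCODE M21, with a promoter window of 500 bp either side of the outermost 5′ end. Peaks of both libraries overlapping by at least 1 bp were shared. Promoter sequence came from RefSeq (GRCm38.p6) and was found in the genome for 41 of 41 members. Python 3.11.15, numpy 2.4.6 and bedtools 2.31.1 were used, and the overlap and motif code was checked on simulated data. Members and lists were chosen with earlier results of these data known. Genes were named by rule: inducible subunits and counterparts, the highest and lowest of each role, members without a shared peak, the 5 with most distal peaks (ties kept), the 5 largest library ratios, and members with an antioxidant response element under footprints of both libraries; others were named after their values were seen. Alternatives varied the window, start, peak list, scaling and left-out library. Intervals cannot be given for the values, since the tables hold calls and not reads. The value of 1 microglia marker is not reported here.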

Additional observations from a re-analysis of the deposited data

How the results depend on the processing

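Of 64 recomputed values, 54 stayed close to the main value and 10 moved. Summing the peaks of a window in place of the strongest raised the median signal from 3.68 to 4.29 over members and from 3.25 to 3.56 over constitutive 20S genes. The median summed signal of the immunoproteasome genes, 2.44, became 3.38 with 1 kb either side and 4.02 with any annotated start. The median of footprints per member, 6.5, became 5.5 with 250 bp either side. The median of distal shared peaks, 1, became 0 with the smaller peak list, 0 with a distal limit of 2.5 kb and 4 with 50 kb either side. Members with an antioxidant response element, 6, became 21 with 500 bases either side and 3 where a footprint had to overlap it. The causes were not tested; a wider window holds more sequence and more peaks. RefSeq starts (39 members with a shared promoter peak, median 3.56) and leaving out Psmc3ip (41, median 3.61) were chosen after seeing the data. No paired analysis was possible because there is 1 group. The libraries give a spread over n = 2, and calls without reads give no counting error.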
